A study of Mus musculus with 1203 samples.

Results

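The genes of the cytosolic ribosomal proteins were chosen by symbol: Rpl or Rps followed by a digit, together with Rplp0, Rplp1, Rplp2 and Rpsa, without pseudogene symbols and without the S6 kinases. The rule took 92 of 46517 genes. They comprised 50 genes with Rpl symbols for the large subunit, 39 for the small subunit including Rpsa, and the 3 stalk genes Rplp0, Rplp1 and Rplp2. The GENCODE M21 annotation lists 86 of them as protein coding and 6 as pseudogenes of various kinds, namely Rps3a2, Rps3a3, Rps4l, Rpl37rt, Rps12l1 and Rps12l2. The rule also took in Rps19bp1, which encodes a binding partner of Rps19 and not a ribosomal protein.

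The cytosolic ribosome is built from a small and a large subunit, each made of ribosomal RNA and many proteins, and the cell makes these proteins in near equal numbers. Their mRNAs are among the most abundant in a dividing cell. In mammals most of them begin at a C inside a short run of pyrimidines, the 5′ terminal oligopyrimidine tract, through which mTORC1 signalling sets how strongly they are translated. In the colon, ribosomal protein mRNAs are known to be high in crypt base and progenitor cells and lower in mature cells, and tuft cells are rare chemosensory epithelial cells that no longer divide.

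Single cells were sorted from the colon of female mice 11 weeks old, and their polyadenylated RNA was sequenced by a modified Smart-seq2 method, a plate-based protocol that covers whole transcripts. One group is labelled wild type and the other VillinCre;IPMKf/f, a conditional knockout (cKO) in which the Villin promoter drives Cre in the intestinal epithelium to delete Ipmk, inositol polyphosphate multikinase. Whether the wild type mice carried the floxed allele or the Cre transgene is not given in the labels. Wells labelled tuft were sorted as EPCAM+ SIGLEC-F+ cells, and the other wells are labelled epithelial. The wells were filled in 7 plate sets, 3 of them wild type (1, 3 and 6) and 4 of them cKO (2, 4, 5 and 7). No animal is named and each plate set holds 1 genotype, so each genotype counts as 1 sample, no p-value is given, and plate set and genotype cannot be told apart. Values are means over plate sets with the SD between them, which may be technical.

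A limit of 1000 detected genes left 856 cells, where a gene is detected at any value above 0 TPM, a length-corrected unit that sums to the same total in every cell. Cells with Trpm5 at 50 TPM or more and Dclk1 at 100 TPM or more, both defining tuft markers, are called marker-positive tuft cells, and all remaining kept cells are called other cells. Marker-positive cells made up 60.3% of the kept wild type and 62% of the kept cKO-labelled wells labelled tuft, and 46.2% and 1.96% of those labelled epithelial. Plate set 7 held 9 of them, sets 1 to 5 between 53 and 74 each, and set 6 the most. All 12 tuft markers of a list averaged 1 TPM or more in them, and their summed level ranged from 1612 to 2748 TPM over plate sets. The list holds Trpm5 and Dclk1, which chose these cells, and Siglecf, which the sort used. Among the others, Sh2d6 was at 853 TPM, Avil at 86.98 TPM and Pou2f3 at 19.7 TPM. All 4 enteroendocrine markers were below 1 TPM, and the colonocyte list summed to between 32.7 and 610 TPM. In marker-positive cells Ipmk itself was at 1.83 ± 0.32 TPM in the wild type sets (SD, n = 3) and 5.21 ± 5.11 TPM in the cKO-labelled sets (n = 4), with overlap, so the targeted gene was not lower in the cells labelled cKO. In all wells labelled tuft Ipmk was at 3.61 ± 0.60 and 10.7 ± 5.5 TPM, and in other cells at 6.35 ± 1.19 and 18.4 ± 6.9 TPM. In both of these groups of cells every cKO-labelled set was above every wild type set. Where the deleted part lies in the counted transcript is not known here, so every direction between genotypes compares cells as labelled. The 18S ribosomal RNA row Rn18s-rs5 held 78.4 ± 1.7% and 78.7 ± 1.2% of all TPM in the marker-positive cells of the 2 genotypes, so that all shares below are shares of a total that this row dominates.

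The sequences around the annotated start of transcription are shown for members with and without a pyrimidine run. RefSeq promoter sequences of the GRCm38.p6 build matched 67 of the 92 members. Each line gives 10 bases before to 20 bases after the start, read on the coding strand, with runs of at least 7 C or T in capitals. Rps6, Rps18, Rps27 and Rpl14 are shown because their levels were lower in cKO-labelled tuft cells. Rplp2 and Rpl13a are further members with a run, of 10 and 14 bases. Rpl22, Rpl27 and Rpsa are members without such a run that met the rule of size in a comparison below.
Rps6 (chr4:86857348-86857377, minus strand): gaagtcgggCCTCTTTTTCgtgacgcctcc
Rps18 (chr17:33955646-33955675, minus strand): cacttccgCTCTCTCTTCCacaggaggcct
Rps27 (chr3:90213629-90213658, minus strand): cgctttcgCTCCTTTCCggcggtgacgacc
Rpl14 (chr9:120571507-120571536, plus strand): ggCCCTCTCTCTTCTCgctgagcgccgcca
Rplp2 (chr7:141447641-141447670, plus strand): cagcgTCTTCCTTTCgccgccggacgccgc
Rpl13a (chr7:45128726-45128755, minus strand): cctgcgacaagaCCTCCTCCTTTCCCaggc
Rpl22 (chr4:152325716-152325745, plus strand): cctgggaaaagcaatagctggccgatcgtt
Rpl27 (chr11:101442235-101442264, plus strand): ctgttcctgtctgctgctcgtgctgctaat
Rpsa (chr9:120127756-120127785, plus strand): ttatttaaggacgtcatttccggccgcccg

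A run of at least 7 C or T lay in this window in 33 of the 67 matched members (49.3%) and in 20.5% of the 27025 genes of the table. The letters TTTCC on the coding strand were in 25.4% of members and 5.01% of genes. The letters CCGGAAG, a core bound by ETS factors, were on either strand between 250 bases before and 50 bases after the start in 38.8% of members and 9.93% of genes. TATAAA on the coding strand of the same window was in 8.96% of members and 9.77% of genes. Of the 13 matched members that were lower in cKO-labelled tuft cells by the rule given below, 6 had the pyrimidine run (46.2%), against 24 of the 45 other members that were tested and matched (53.3%). A match describes the letters in the annotated window only, and an annotated start a few bases away from the used one moves a run out of it.

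In wild type marker-positive tuft cells 80 members averaged 10 TPM or more and 43 averaged 100 TPM or more. TPM corrects for transcript length, but the division of reads among near-identical copies, described further on, makes the level of a single member uncertain. The highest member was Rpl18, at 657 ± 168.7 TPM (SD, n = 3), followed by Rpl13a at 438.04 ± 104.9, Rpl31 at 364.6 ± 22, Rplp1 at 364.3 ± 53, Rpl19 at 352.2 ± 55, Rpl41 at 327.2 ± 89, Rps14 at 294.3 ± 61 and Rpl13 at 268.9 ± 68 TPM. The ranges of mean ± SD of neighbours in this order overlapped. The 10 highest members held 32.01% of the summed level of all 92. The lowest above 0 were Rpl37 at 5.51 TPM, whose copy Rpl37rt was at 227.1 TPM, Rpl12 at 5.38, Rpl7l1 at 2.44, Rps27rt at 1.99 and Rps3a3 at 0.21 TPM. The median member was at 90.6 TPM.

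Detection per cell was incomplete even for abundant members. Rpl8, a large-subunit protein, was above 0 in 96.3% of wild type marker-positive cells (95% exact binomial interval 93.5 to 98.1%) and in 88.8% of cKO-labelled cells (83.3 to 92.9%), intervals that cover counting error only. Only Rpl8, Rpl13a, Rpl19 and Rpl13 were detected in over 90% of wild type cells, and 36 members were detected in under 50%. The median member was detected in 61.7% of wild type and 49.5% of cKO-labelled cells. The coefficient of variation of TPM over wild type cells ran from 0.900 for Rpl19 to 7.26 for Rps15a, with a median of 1.51 over the 80 members at 10 TPM or more. Rpl3l, Rpl10l and Rpl39l, paralogs known from muscle (Rpl3l) and testis (Rpl10l, Rpl39l), were listed at 0 in all marker-positive cells of both genotypes, and 0 such cells allows a share of up to 1.00% of wild type and 1.604% of cKO-labelled cells with a value by the limit of 3 counts. The upper bounds of the exact binomial interval are 1.23% and 1.95%. Level and the length of the longest annotated transcript were weakly related over 88 members at 1 TPM or more, with Spearman's rho of -0.11 and Pearson's r of -0.09 on log2 scales, given as a description across genes.

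As a sum, the ribosomal protein genes held a smaller share of all TPM in cKO-labelled than in wild type marker-positive tuft cells. The separation of the plate sets was not kept under every way of counting. The share of all TPM, averaged over cells, was 1.25% in plate set 1, 1.15% in set 3 and 0.931% in set 6 of wild type. In cKO-labelled cells it was 0.786% in set 2, 0.859% in set 4, 0.847% in set 5 and 0.902% in set 7. The wild type and cKO-labelled sets did not overlap, although set 6 and set 7 lay close together. The means were 1.11 ± 0.16% (SD, n = 3) and 0.849 ± 0.048% (n = 4), and the ratio of wild type to cKO-labelled sets was 1.31 with plate set 7 and 1.34 without it. Outside Rn18s-rs5 and the mitochondrial genes the share was 5.36 ± 0.30% and 4.23 ± 0.24%, again with no overlap. The separation was lost when the pseudogene rows of these genes were added, whose share was 0.288 ± 0.066% in wild type and 0.245 ± 0.026% in cKO-labelled sets. Members and pseudogene rows together held 1.61%, 1.43% and 1.16% in wild type sets 1, 3 and 6 and 1.01%, 1.09%, 1.09% and 1.18% in cKO-labelled sets 2, 4, 5 and 7, so set 7 lay above set 6. The groups also overlapped with marker limits of 100 TPM for Trpm5 and 200 TPM for Dclk1, when the log2 difference was -0.32 in place of -0.39.

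**Figure D1:**
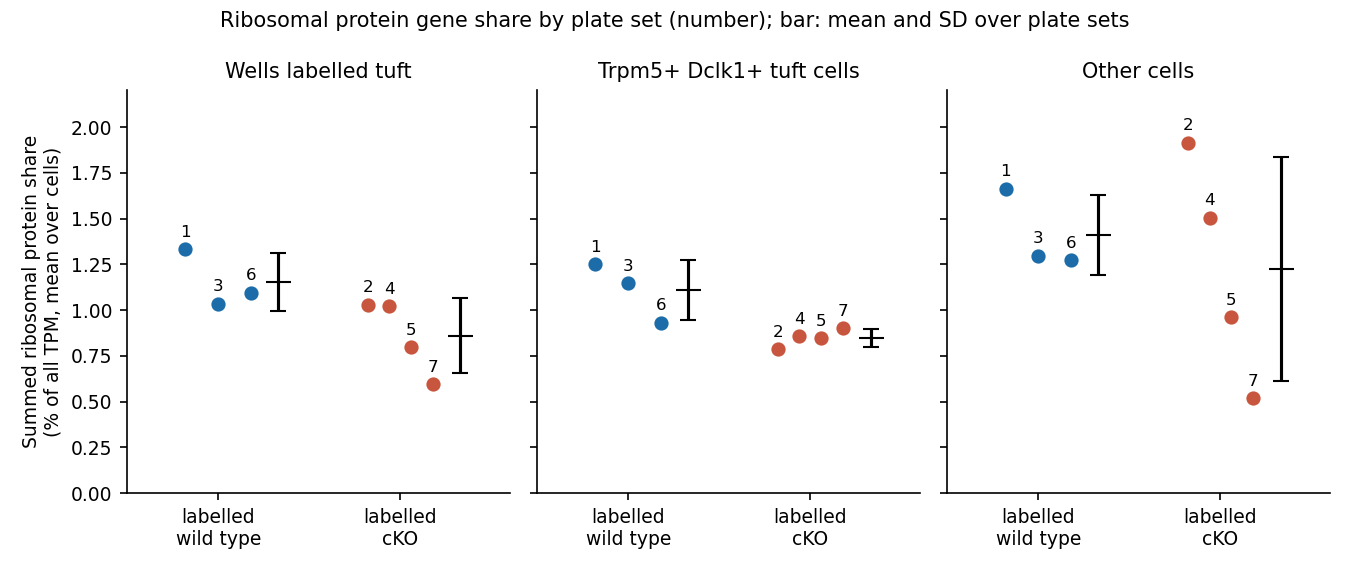
Summed share of the 92 ribosomal protein genes in all TPM (vertical axis, percent, mean over cells of a plate set) for wells labelled tuft, marker-positive tuft cells and other cells. Each point is a plate set with its number, and the bar is the mean with the SD over 3 wild type or 4 cKO-labelled plate sets: in the middle panel all cKO-labelled points (0.786 to 0.902%) lie below all wild type points (0.931 to 1.25%), while in other cells the groups overlap.

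This difference depended on which cells were counted. Cells with more genes detected had a higher ribosomal protein share within every plate set, with Spearman's rho between 0.43 and 0.78 over the marker-positive cells of a set. Genes detected per marker-positive cell averaged 2883 ± 100.6 in wild type and 2624 ± 333.6 in cKO-labelled sets. Among cells with at least 2000 genes the shares were 1.29%, 1.26% and 1.12% in wild type sets 1, 3 and 6 and 0.915%, 1.11%, 1.05% and 1.19% in cKO-labelled sets 2, 4, 5 and 7. The means of 1.22 ± 0.09% and 1.07 ± 0.12% then overlapped in their plate sets, because set 7, with 5 such cells, lay above wild type set 6. Plate set 2 had the most genes per marker-positive cell of all sets, 3084, and the lowest share. Depth in reads is unknown, since TPM keeps none, and the part of depth in the difference was not tested. In wells labelled tuft with at least 2000 genes the groups overlapped as well, at 1.39 ± 0.18% and 1.10 ± 0.25%.

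The small-subunit genes held 0.461%, 0.461% and 0.365% of TPM in wild type sets 1, 3 and 6, and 0.309%, 0.316%, 0.327% and 0.315% in cKO-labelled sets 2, 4, 5 and 7. These groups did not overlap, at 0.429 ± 0.055% and 0.317 ± 0.008%. The large-subunit genes held 0.612 ± 0.103% and 0.474 ± 0.050%, and the highest cKO-labelled set (0.539%, set 7) lay above the lowest wild type set (0.509%, set 6). The stalk genes held 0.069 ± 0.010% and 0.058 ± 0.008%, with overlap. Whether the subunits differed from each other in this was not tested.

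In all wells labelled tuft, whatever their markers, the share was 1.15 ± 0.16% in wild type and 0.861 ± 0.207% in cKO-labelled sets. The groups did not overlap, but set 3 (1.04%) and set 2 (1.03%) were nearly equal, and the lowest cKO-labelled value, 0.596%, came from plate set 7. They overlapped with pseudogene rows added, on the first plate of each set, and with medians over cells. Without set 7 the cKO-labelled mean was 0.94985 ± 0.132% and the ratio of wild type to cKO-labelled cells moved from 1.34 to 1.22. In these wells the colonocyte marker list summed to 897 TPM in wild type and 1928 TPM in cKO-labelled sets, and the goblet list to 838 and 649 TPM. The part of this cell mixture in the gate value was not tested.

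Other cells, whose colonocyte markers summed to between 1355 and 5076 TPM and goblet markers to between 76.8 and 5797 TPM over plate sets, showed no such separation. Immune markers reached 1869 TPM in one of these sets and were at 0 in another. Their share was 1.66%, 1.296% and 1.27% in wild type sets 1, 3 and 6 and 1.91%, 1.51%, 0.961% and 0.518% in cKO-labelled sets 2, 4, 5 and 7. The cKO-labelled sets spread on both sides of wild type, at 1.22 ± 0.61% against 1.41 ± 0.22%, and without plate set 7 the cKO-labelled mean of 1.46 ± 0.48% was above wild type. Whether the genotype difference in tuft cells was larger than that in other cells was not tested.

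Gene by gene, the members tested were those at 10 TPM or more in a genotype, 81 of 92 in marker-positive tuft cells. A member met the rule of size when it also differed by 1.5-fold or more on log2(mean TPM + 1) and its plate sets did not overlap between genotypes. In marker-positive tuft cells 15 of 81 members (18.5%) were lower in cKO-labelled cells and 0 were higher, against 2.55% of 2310 genes lower and 1.77% higher over the whole table. The median difference over members was -0.43 on the log2 scale, beside -0.20 over all genes tested, and 78 of 81 values were negative, as were 67.4% of the values of all genes tested. Plate sets did not overlap for 20 members, all lower in cKO-labelled cells, a pattern found in 3.16% of all genes tested. Without plate set 7, 13 of 82 members were lower beside 3.3% of all genes, and 9 of these were among the 15. The 11 members under the limit were not tested.

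How many members met the rule moved with the cells and plate sets used. Without plate set 6, the wild type set with the lowest share, 35 members were lower, beside 14.6% of all genes. Among cells with at least 2000 genes only Rpl22, Rpl10a and Rpl27 were lower (3.66% of members, beside 1.81% of all genes), Rps4l was higher, and the median was -0.23. Rpl22 and Rpl27 were lower whichever single plate set was left out.

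Among large-subunit members, Rpl22, an RNA-binding protein of the subunit surface, had the largest difference that met the rule. Its values were 133.2, 123.99 and 116.6 TPM in wild type sets 1, 3 and 6 and 78.8, 47.5, 50.5 and 0 TPM in cKO-labelled sets 2, 4, 5 and 7. Every cKO-labelled set was below every wild type set, and set 7, with its 9 cells, was listed at 0. The difference was -2.57 with set 7 and -1.10 without it. Rpl22 was detected in 47.8% of wild type cells (42.04 to 53.7%) and 32.6% of cKO-labelled cells (25.96 to 39.8%). Rpl27 gave 23.9, 25.8 and 28.04 TPM in wild type sets against 14.2, 16.7, 12.5 and 0 TPM in cKO-labelled sets. Its difference was -1.79 with set 7 and -0.80 without it, and it met the rule both ways. Its 3 pseudogene rows held more, 102.7 TPM in wild type, and the sum of all 4 rows differed by -0.58, short of 1.5-fold, with no overlap.

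Rpl26, Rpl35a, Rpl14 and Rpl23 also met the rule with and without plate set 7. Rpl26, which lies near the exit of the nascent peptide tunnel, had 202.5, 137.3 and 139.1 TPM in wild type sets against 109.9, 86.1, 59.3 and 126.7 TPM in cKO-labelled sets. The highest cKO-labelled set was set 7, so that leaving it out moved the difference from -0.77 to -0.92. Rpl35a, one of the genes mutated in Diamond-Blackfan anaemia, had 143.6, 92.8 and 99.6 TPM against 91.7, 49.7, 68.2 and 56.8 TPM, and its lowest wild type and highest cKO-labelled sets nearly touched. Rpl14 had 98.2, 78.1 and 57.02 TPM in wild type sets against 46.9, 52.8, 43.5 and 37.03 TPM in cKO-labelled sets, a difference of -0.75 (SD of plate sets 0.29). With pseudogene rows added, the Rpl14 sum differed by -0.40 and the Rpl35a sum by -0.75, and the plate sets of both overlapped.

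Rpl37a, Rpl29, Rpl10a and Rpl24 met the rule with plate set 7 only. Their differences were -0.79, -0.78, -0.66 and -0.61 with it and -0.58, -0.55, -0.49 and -0.47 without it, short of 1.5-fold. Rpl29 had 246.4, 192.9 and 164.4 TPM in wild type sets against 137.1, 142.9, 125.2 and 71.2 TPM in cKO-labelled sets. All cKO-labelled values of Rpl24, a protein of a bridge between the subunits, lay between 39.4 and 62.04 TPM and all wild type values between 76.3 and 85.9 TPM. With its pseudogene rows Rpl10a differed by -0.41, with overlap.

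The small-subunit members that met the rule included Rps18, Rps4x, Rps6 and Rps27. Rps6, the protein that S6 kinases phosphorylate downstream of mTORC1, had 68.2, 86.2 and 50.4 TPM in wild type sets against 48.6, 46.3, 38.7 and 37.9 TPM in cKO-labelled sets. Its difference was -0.63 (SD 0.28), and -0.58 without set 7, just short of the rule. With its pseudogene rows it differed by -0.70, with overlap. Rps18, a protein of the head of the small subunit, had 220.999, 236.8 and 193.5 TPM in wild type sets against 157.05, 153.3, 162.1 and 70.8 TPM in cKO-labelled sets, so its difference of -0.74 became -0.46 without set 7. The X-linked Rps4x had 139.05, 128.9 and 90.6 TPM against 84.9, 75.5, 70.9 and 63.2 TPM, and the zinc-finger protein Rps27 had 252.01, 199.6 and 240.8 TPM against 165.6, 145.7, 116.2 and 180.5 TPM. Both met the rule without set 7 as well. Of the 15 members that met the rule, 11 have pseudogene rows in the table: as sums with those rows, 6 met it (Rpl22, Rpl26, Rpl29, Rps18, Rps4x and Rps27), 4 had overlapping plate sets and 1 was short of 1.5-fold. The pseudogene rows of Rpl22, Rpl26 and Rps27 were at 0 TPM, and in wild type those of Rpl29 and Rps4x at 0.85 and 0.51 TPM. For these members the sum was almost the member's own value and could not change the outcome. Of the 6, only Rps18 had more in such rows, 30.6 TPM in wild type.

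**Figure D2:**
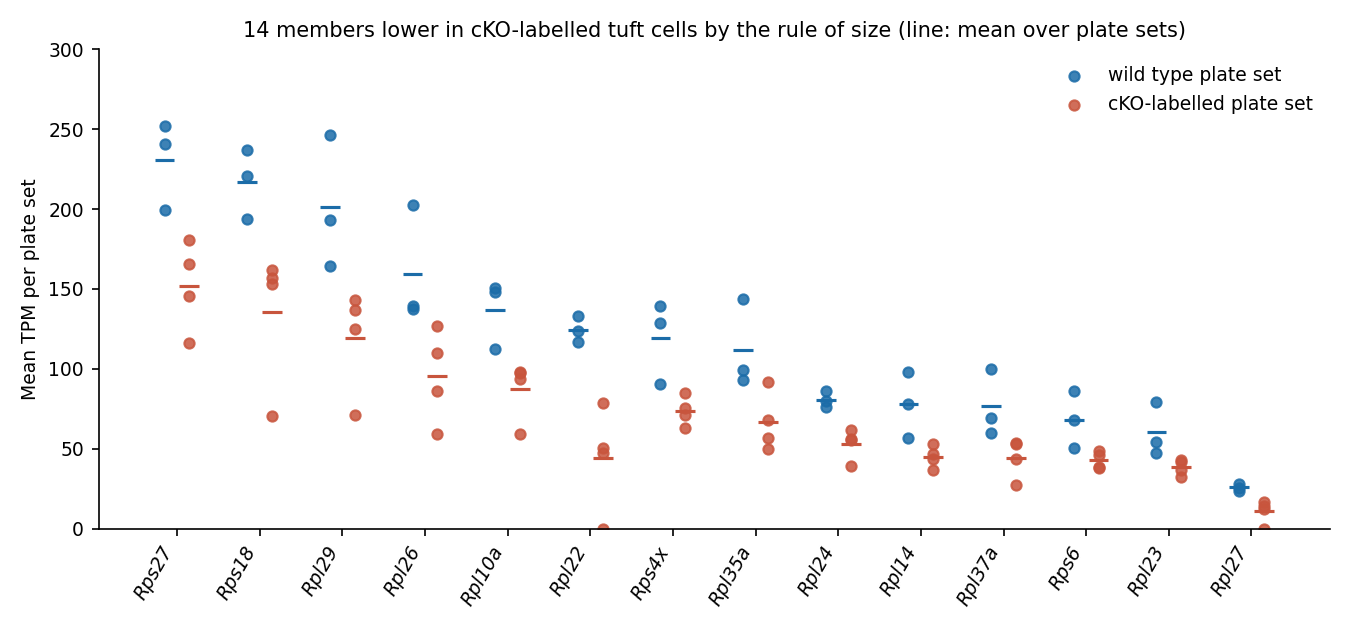
Mean TPM in marker-positive tuft cells (vertical axis) of 14 of the 15 members lower in cKO-labelled cells by the rule of size, ordered by wild type level. Each point is a plate set (3 wild type, 4 cKO-labelled) and each line the mean: Rps27 is the highest at 230.8 TPM in wild type, Rpl27 the lowest at 25.9 TPM, and the lowest cKO-labelled points of Rpl22 and Rpl27 are at 0.

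No stalk member met the rule between genotypes. Rplp0, the protein at the base of the stalk that recruits elongation factors, had 198.9, 264.3 and 155.3 TPM in wild type sets against 168.8, 202.3, 169.5 and 167.1 TPM in cKO-labelled sets, a difference of -0.19 with overlap. Rplp1 differed by -0.30 and Rplp2 by -0.18. The 3 tested members with values above 0 were Rpl5 at 0.59 (SD 0.42), Rps26 at 0.36 (SD 0.43) and Rpl36al at 0.04, and the plate sets of each overlapped. Rpl18, the highest member, had a higher mean in cKO-labelled than in wild type sets, 816.97 against 657.1 TPM. Its difference was negative only because log2 values were averaged over plate sets. Rpl5, which carries the 5S ribosomal RNA into the large subunit, had 11.5, 6.70 and 6.47 TPM in wild type sets against 15.0, 8.96, 10.2 and 17.6 TPM in cKO-labelled sets.

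In all wells labelled tuft, 6 of 81 members (7.41%) met the rule, all lower in cKO-labelled cells, beside 2.2% of all genes lower and 1.93% higher. They included Rpl27, Rps12l1, Rpl14, Rpl29 and Rps6, and 4 of the 6 were among the 15 of marker-positive cells. The median of -0.56 (all genes -0.15) moved to -0.31 (all genes -0.02) without plate set 7, when 4 members met the rule beside 1.91% of all genes. The count was 25 without set 2, 19 without set 3, 14 without set 4 and 13 without set 6. The share of all genes lower was then 5.13%, 4.25%, 5.37% and 9.23%. In other cells 0 of 83 members met the rule in either direction, beside 1.97% of all genes lower and 3.17% higher. The median there was -0.50 with plate set 7 and -0.02 without it, when again 0 of 84 met the rule beside 1.86% of all genes lower.

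Genes whose products work with the ribosome were compared by lists. Of the translation factor genes whose mRNAs are known to carry a terminal pyrimidine tract, 12 of 16 were tested in marker-positive tuft cells and 0 met the rule, all 12 values were negative, with a median of -0.32, beside 67.4% negative and a median of -0.20 over all genes tested. Eef1a1, which brings aminoacyl-tRNA to the ribosome, was at 369.1 TPM in wild type sets and 258.1 TPM in cKO-labelled sets, Eef1b2 at 165.7 and 138.4 TPM, and Tpt1 at 152.8 and 108.6 TPM. Fau, which encodes a ribosomal protein fused to a ubiquitin-like domain, differed by -0.47. Of 23 ribosome assembly genes 4 were tested, of which 0 met the rule, with a median of -0.54. They were Nhp2 at -1.28, Nop58 at -0.93, Ncl at -0.15 and Nop56 at 0.003. All 4 lay near the limit, at 10.02 to 11.54 TPM in wild type. In other cells 2 of the 4, Nop58 and Nop56, were lower by the rule, beside 1.97% of all genes. The 35 tested of 82 mitochondrial ribosomal protein genes had a median of 0.00 in marker-positive cells and 0 met the rule, and 18 of them had negative values. By the rule 2.55% of all genes were lower in these cells and 1.77% higher, shares that such short lists are too small to be compared with. Each list is a description, and no list was tested against another.

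Tuft cells were then set against the other cells of the same plate sets. The summed share was 0.961 ± 0.172% in marker-positive tuft cells and 1.304 ± 0.46% in other cells (SD, n = 7). It was lower in tuft cells in 6 of 7 plate sets. The difference in percentage points was -0.412 in set 1, -1.13 in set 2, -0.149 in set 3, -0.647 in set 4, -0.113 in set 5 and -0.342 in set 6, and 0.384 in set 7. Without set 7 the mean difference moved from -0.344 ± 0.471 to -0.465 ± 0.378 points. On the log2 scale it was -0.36 with all sets, -0.55 without set 7 and -0.20 without set 2. With medians over cells in place of means it was 0.02 and lower in 4 of 7 sets, and among wells labelled tuft alone it was -0.13, also lower in 4 of 7. Within other cells the share went up with the stem and progenitor marker sum (rho 0.47 to 0.74 over plate sets) and down with the colonocyte marker sum (rho -0.44 to -0.16). Within marker-positive tuft cells it went up with the colonocyte sum (rho 0.24 to 0.67), and rho with the stem and progenitor sum was 0.02 to 0.56. Of that list, Stmn1 was at 23.3 TPM in other and 5.45 TPM in tuft cells, and Lgr5 at 3.51 and 34.3 TPM. These values describe cells that share plates and depth. The Rn18s-rs5 share was 78.6% in tuft and 73.2% in other cells and the mitochondrial share 2.58% and 6.11%, and the part of these in the difference was not tested. Outside both, the share was 4.72 ± 0.65% and 6.06 ± 1.38%.

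On average more members were detected in a tuft cell although their sum was lower. Members above 0 per cell averaged 45.2 ± 5.3 in tuft and 39.5 ± 7.4 in other cells, and were more in tuft cells in 6 of 7 plate sets. Genes detected in all averaged 2735 and 2863. The share of the 3 stalk genes was lower in tuft cells in 7 of 7 sets, at 0.063 ± 0.010% against 0.115 ± 0.035%, with a ratio of other to tuft cells of 1.83. The same ratio was 1.44 for the small-subunit and 1.25 for the large-subunit genes. Whether the stalk genes differed more than the rest was not tested.

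A member met the rule of size between classes when it was at 10 TPM or more in a class, differed by 1.5-fold or more, and had the same sign in all 7 plate sets. Of 82 members tested, 14 (17.1%) were lower in tuft cells and 0 higher. Over all genes 23.8% were lower and 14.8% higher. The median was -0.35 beside -0.21 over all genes, -0.55 beside -0.21 without plate set 7, and -0.19 without plate set 2. When log2 values were averaged over cells in place of TPM, the median turned to 0.18, with 3 members lower and 9 higher. The share of all genes lower was 23.9% in that setting. Without set 7, 29 members (35.4%) were lower, all of the 14 among them, beside 26.1% of all genes. The share of members lower was thus under that of all genes with set 7 and over it without set 7, and the difference between members and all genes was not tested.

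The members lower in tuft cells included Rpsa, Rplp0 and Rps2. Rpsa, the small-subunit protein also known as the laminin receptor, had 52.9, 57.2 and 32.2 TPM in tuft cells and 114.8, 114.8 and 105.3 TPM in other cells of wild type sets 1, 3 and 6. In cKO-labelled sets 2, 4, 5 and 7 it had 28.2, 46.6, 32.9 and 30.98 TPM in tuft and 113.6, 160.7, 86.6 and 56 TPM in other cells. Every set was lower in tuft cells, by -1.39 ± 0.43 (SD, n = 7) on the log2 scale. Rplp0 differed by -1.36 ± 0.38, from a mean of 493.5 TPM in other to 189.5 TPM in tuft cells. Rps2, which lines the mRNA entry of the small subunit, had 262.9 and 121.6 TPM, a difference of -1.09 ± 0.50, again in all sets.

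Rpl22 was lower in tuft cells as well, by -1.37 ± 1.76, and by -0.73 without set 7, where it was at 0 in tuft cells. Rpl9 differed by -1.15 ± 0.70, Rpl12, at the stalk base, by -1.06 ± 0.91 from a low level of 12.6 TPM, Rpl4, which reaches into the exit tunnel, by -1.03 ± 0.48, and Rpl10, which joins late in large-subunit assembly, by -0.89 ± 0.54. The remaining 6 were Rpl10a, Rps9, Rpl15, Rpl17, Rpl7a and Rplp1, with differences between -0.87 and -0.64. The differences of Rps9 and Rplp1 turned positive, higher in tuft than in other cells, when log2 values were averaged over cells. In that setting Rplp1 met the rule as higher in tuft cells. Rpl22 and Rpl10a were lower by the rule both in tuft against other cells and in cKO-labelled against wild type tuft cells.

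Of the members with values above 0, 0 met the rule. They included Rpl38 at 1.08 ± 2.36, Rpl41 at 0.98 ± 1.74, Rpl36al at 0.76 ± 0.89, Rpl37a at 0.52 ± 0.83 and Rps25 at 0.47, the last at -0.10 without plate set 7. Rpl38 had 123.8, 68.9 and 123.2 TPM in tuft and 79.1, 73.9 and 117.3 TPM in other cells of wild type sets, and its mean rested on set 7, where other cells were listed at 0: without it the difference was 0.20. Rpl41, whose product is a very short peptide, moved likewise from 0.98 to 0.38. Over 82 members the difference was more negative for longer transcripts (rho -0.29 with the longest and -0.43 with the median annotated transcript), a description across genes. Of the translation factor list, 7 of 14 tested genes were lower in tuft cells, beside 23.8% of all genes, with a median of -0.83 beside -0.21: Npm1 at -1.89, Eif3e at -1.57, Hnrnpa1 at -1.31, Eef1g at -1.07, Eif3h at -1.02, Eef1a1 at -1.004 and Tpt1 at -0.79.

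**Figure D3:**
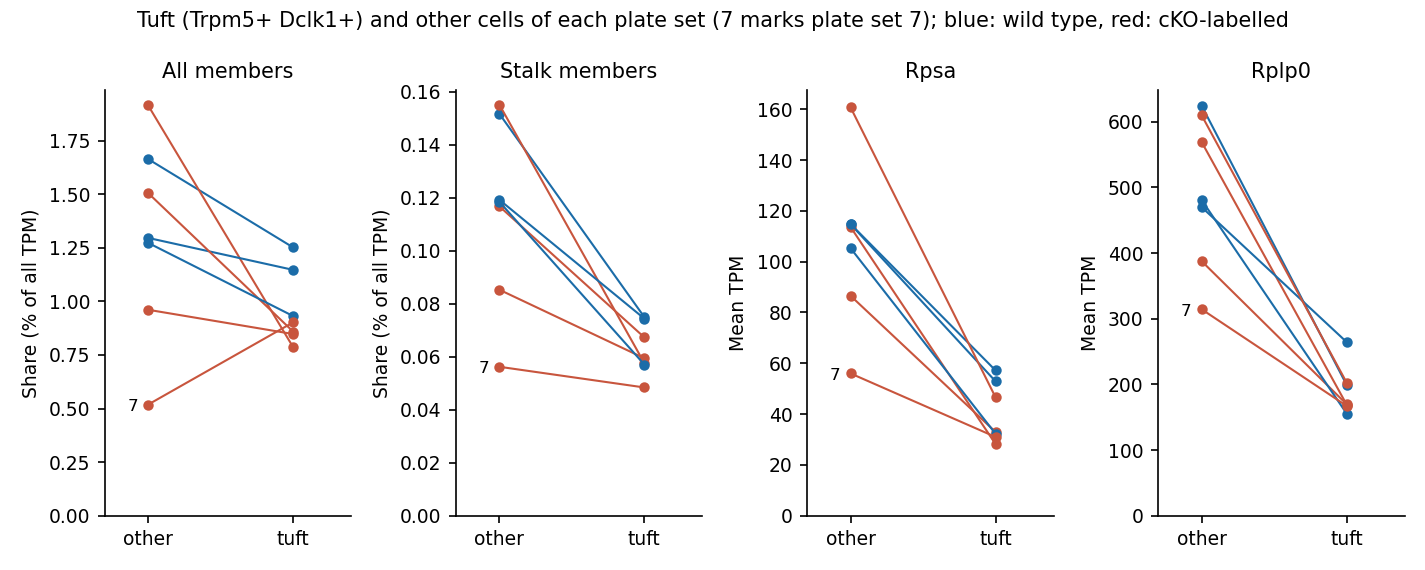
Other and marker-positive tuft cells of each plate set joined by a line, for the summed share of all members and of the 3 stalk genes (percent of all TPM) and for the mean TPM of Rpsa and Rplp0, with wild type sets in blue, cKO-labelled sets in red and plate set 7 marked. All lines go down from other to tuft cells except that of plate set 7 in the first panel, which rises by 0.384 percentage points.

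**Figure D4:**
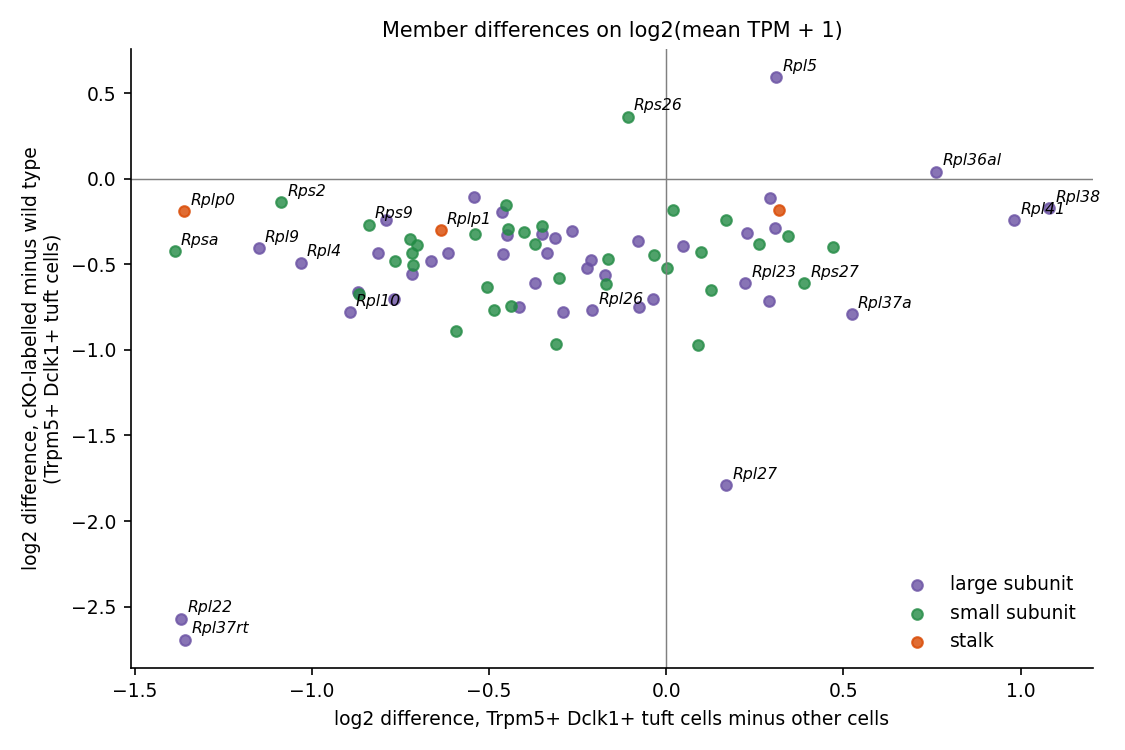
Difference of each member on log2(mean TPM + 1) between marker-positive tuft and other cells (horizontal axis) and between cKO-labelled and wild type marker-positive tuft cells (vertical axis), coloured by subunit, for members tested in both. Nearly all points lie below 0 on the vertical axis (78 of the 81 tested there), while on the horizontal axis 59 of 82 are below 0. Over all genes tested, 67.4% and 57.4% of values were below 0. The axes share the tuft cells and are shown side by side without a correlation.

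Ribosomal protein genes have many near-identical copies, which bears on every single-gene value here. For 73 of the 92 members more than 50% of the 50-base words of the coding sequence (or of the longest transcript, for pseudogenes) also occur in a transcript of another annotated gene, with a median of 88.6%. The reads were divided among such genes by an estimate, so the level of 1 copy is uncertain. Only 11 members had under 25% of such words in another gene, and 5 of these were expressed at 10 TPM or more, Rpl8, Rps3, Rpl4 and Rpl41 among them. In marker-positive tuft cells all 5 had negative genotype differences with a median of -0.38 (-0.36 without plate set 7), and 0 of 5 met the rule. Over all genes tested there, 67.4% of values were negative and the median was -0.20 (-0.06 without plate set 7). By the rule 2.55% of all genes were lower, a share that 5 members are too few to be compared with.

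Rpl37rt, a transcribed copy of Rpl37, shows how far the division can go. Rpl37 lies at chr15:5116645-5119140 and Rpl37rt at chr5:115102923-115110268 (GRCm38), and they differ at 1 base over the coding sequence of Rpl37 (99.7% identity). Shown are 60 coding bases that hold this difference, with differing bases in capitals, and then 60 coding bases of Rpl36a beside its expressed paralog Rpl36al and of Rpl22 beside Rpl22l1, pairs that differ at many bases, with 12 and 21 differences in the stretch. The sequences are read on the coding strand from GENCODE M21 transcripts (GRCm38). Rpl36a lies at chrX:134585654-134588062, Rpl36al at chr12:69182731-69184083, Rpl22 at chr4:152325742-152334071 and Rpl22l1 at chr3:28805436-28807424.
Rpl37: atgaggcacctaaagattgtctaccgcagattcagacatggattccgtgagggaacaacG
Rpl37rt: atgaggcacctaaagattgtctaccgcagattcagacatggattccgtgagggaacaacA
Rpl36a: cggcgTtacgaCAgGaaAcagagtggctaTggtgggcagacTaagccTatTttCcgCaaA
Rpl36al: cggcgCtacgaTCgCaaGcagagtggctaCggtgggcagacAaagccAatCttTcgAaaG
Rpl22: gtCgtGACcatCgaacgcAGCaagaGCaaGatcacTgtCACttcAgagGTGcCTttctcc
Rpl22l1: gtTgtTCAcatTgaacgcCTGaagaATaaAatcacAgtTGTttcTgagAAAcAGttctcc

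Rpl37rt was assigned 222.3, 311.5 and 147.5 TPM in marker-positive tuft cells of wild type sets 1, 3 and 6, and Rpl37 itself 6.55, 5.03 and 4.94 TPM. In cKO-labelled sets 2, 4, 5 and 7 Rpl37rt had 112.7, 266.3, 41.5 and 0 TPM. The copy held 97.4 ± 0.9% of the pair in wild type and 96.5 ± 2.0% in the cKO-labelled sets where either was above 0. Rps12l1, identical to Rps12 over the 86.5% of its coding sequence that aligned, held 69.2 ± 2.7% of that pair in wild type and 61.4 ± 13% in cKO-labelled sets. Rps27rt, identical to the coding sequence of Rps27, was given 0.8% of that pair. Rps3a2, at 99.5% identity to Rps3a1, held 17.9 ± 4.7% and 13.8 ± 5.7%. For these copies the files cannot show which gene was transcribed.

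The diverged pairs differ more from each other, but most of these genes share words with further copies: 100% of the 50-base words of Rpl36a, Rpl36al and Rps27, 82.6% of those of Rpl22l1 and 31.04% of those of Rpl22 occur in another gene. Rpl36al, 87.7% identical to Rpl36a over the coding sequence, held more TPM than Rpl36a in tuft cells, with 65.9 ± 3.0% in wild type and 70.7 ± 11.5% in cKO-labelled sets, and held 47.6 ± 22.4% and 65.6 ± 23.3% in other cells. The 5 pseudogene rows of Rpl36a, left out of these shares, held 151.7 TPM in wild type tuft cells, against 64.8 TPM for Rpl36al and 33.1 TPM for Rpl36a. Rpl22l1, 76.5% identical to Rpl22 where aligned, was at 19.9 ± 2.3 TPM in wild type and 20.7 ± 15.7 TPM in cKO-labelled tuft cells. It held 13.8 ± 1.6% of its pair in wild type and 38.7 ± 41.2% in cKO-labelled sets, where set 7, with Rpl22 at 0, gave 100%. Rps27l, 79.8% identical to Rps27, held 13.3 ± 2.8% and 17.5 ± 6.1%. Under 10 TPM, Rpl7l1 held 2.8 ± 0.7% and 2.5 ± 1.3% of its pair with Rpl7, and Rps4l 5.8 ± 1.1% and 11.1 ± 3.8% of its pair with Rps4x.

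**Figure D5:**
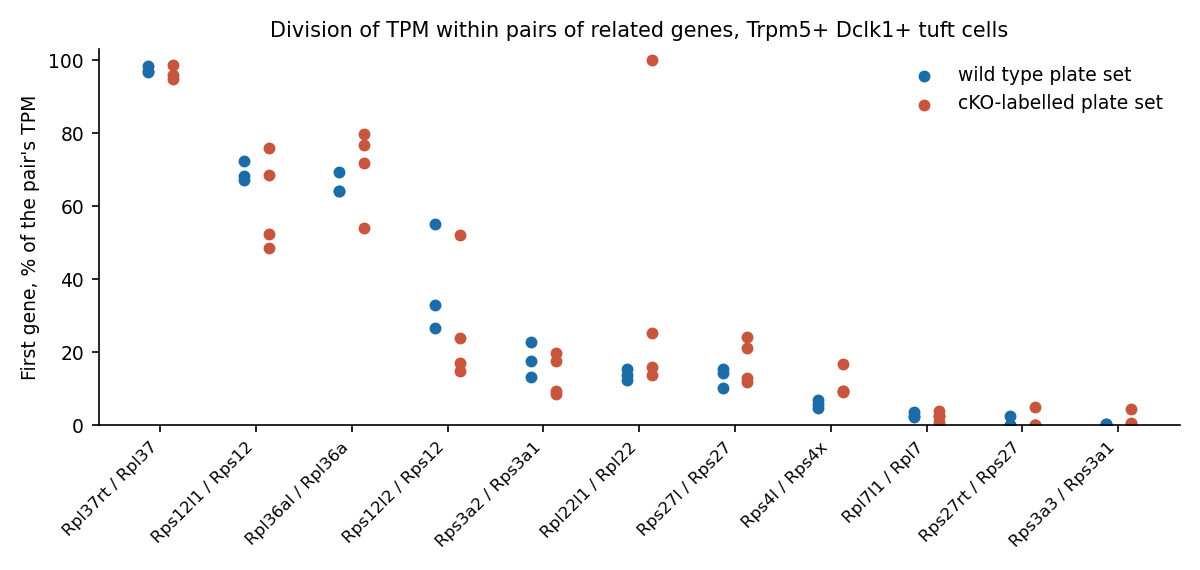
Part of the pair's TPM assigned to the first gene of each pair (vertical axis, percent) in marker-positive tuft cells, with a point for each plate set of wild type (blue) and cKO-labelled sets (red). Near-identical copies range from 97.4% (Rpl37rt) to under 1% (Rps27rt in wild type), and the 100% point of Rpl22l1 is plate set 7, where Rpl22 was listed at 0.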

How the data were processed

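The authors deposited 1 table of TPM per gene and well. Per the submitters' processing notes it was made with Bowtie2 2.4.2 and RSEM 1.3.3 on mm10, and RSEM divides reads shared by several genes by an estimate. Of 1203 columns 38 were not used. The TPM total of a cell and its count of detected genes include the 92 spike-in rows. TPM keeps no depth. Summed shares were computed per cell and averaged per plate set. Member values are plate-set means of TPM on log2(TPM + 1), fitted over the whole table, with a limit of 10 TPM in a group, a 1.5-fold difference and separation of plate sets, and a class needed 5 cells in a plate set. The code was tested on simulated data. The members, lists and comparisons were chosen with earlier results of these data known. Named members are up to 8 in each direction that met the rule, with the next largest values where few did, the highest and lowest levels, and the paralog pairs. The further members that met the rule, the retrocopy pairs and the shared 50-base words were added after values were seen. Start sequences are from RefSeq (GRCm38.p6), and coding sequences and annotation from GENCODE M21. Python 3.11.15, numpy 2.4.6, pandas 2.3.3 and scipy 1.17.1 were used. The values of some members are not reported here.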

Additional observations from a re-analysis of the deposited data

Results flagged for a closer look

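In 43 groups of 4 or 7 plate-set values checked, 5 held a value far from the others. The check flags about 1 in 20 groups of independent values. That rate does not apply here, since most groups were members that had met the rule on these same values. The groups also share cells and plate sets. Rps18 and Rpl10a had met the rule by genotype with plate set 7 only. In cKO marker-positive tuft cells Rps18 was at 70.8 TPM in plate set 7, with the other cKO sets between 153.3 and 162.1 TPM. Rpl10a was at 59.4 TPM in plate set 7, with the others between 93.9 and 98.1 TPM. In the difference between tuft and other cells, Rpl22 was at -5.18 on the log2 scale in plate set 7, where the others lay between -1.82 and -0.19. In plate set 2, Rpl15 was at -2.02 and Rpl10a at -1.81, where the other sets lay between -0.89 and -0.12 and between -0.96 and -0.49. Plate set 7 has 9 marker-positive cells.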

How the results depend on the processing

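Differences are log2 values, cKO against wild type or tuft against other cells. No paired analysis was possible because each plate set holds 1 genotype and replicate numbers follow accession order only. Leaving out each plate set in turn, the share difference ranged from -0.52 to -0.28 in the gate, -0.50 to -0.29 in marker-positive cells, -0.50 to 0.05 in other cells and -0.55 to -0.20 between classes. Member medians ranged from -0.71 to -0.31, -0.60 to -0.33 and -0.55 to -0.19, and members lower from 4 to 25, 10 to 35 and 13 to 29. Members higher in cKO marker-positive cells ranged from 0 to 1. Plate sets of the genotypes came to overlap in marker-positive cells with pseudogene rows added (-0.35), with marker limits of 100 and 200 TPM (-0.32) and with at least 2000 genes, and in the gate with pseudogene rows (-0.41), first plates (-0.48), medians over cells (-0.36) and at least 2000 genes (-0.34). Medians over cells moved the class difference to 0.02. With at least 2000 genes per cell the marker-positive share difference moved from -0.39 to -0.19 and the median to -0.23. In that setting 3 members were lower, beside 1.81% of all genes, and 1 was higher. Averaging log2 values over cells moved the marker-positive median to -0.64 and the count lower to 24, beside 3.29% of all genes. It turned the class median from -0.35 to 0.18, with 3 lower, beside 23.9% of all genes, and 9 higher. Rps9 was then at 0.11 and Rplp1 at 0.89. With Trpm5 at 25 and Dclk1 at 50 TPM, 7 members were lower by genotype, beside 2.72% of all genes. In the gate, 13 were lower on first plates and 11 with rescaled TPM, beside 3.76% and 3.47% of all genes. Between classes, 9 were lower on first plates, 6 with marker limits of 100 and 200 TPM, and 4 (1 higher) in wells labelled tuft, and 1 was higher with rescaled TPM and 1 with a limit of 1 TPM. Level against length gave -0.16 at 10 TPM or more. The cause of these changes was not tested. Of 630 alternative values of single members, 599 moved by less than the spread of plate sets, 29 moved by more and 2 reversed. Among the alternative values of the main results, 25 moved by more and 1 reversed. The yardstick is wide where plate sets differ: the SD of Rpl22 was 2.29, so its move from -2.57 to -1.10 without set 7 stayed within it. A limit of 1 TPM changes which members are tested and not their values. The count of 599 is therefore no measure of robustness. Restricting to members with mostly unique sequence was chosen after seeing the data.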
